A study of Mus musculus with 2 samples.

Results

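The cells described here are the Eomes-high cells of day 2.5 mouse gastruloids in which no transcript of T, Foxa2, Cdx2 or Gsc was counted. Members were chosen by UMI counts of 5 genes: a cell was a member when it held 2 or more UMIs (unique molecular identifiers, each standing for 1 captured RNA molecule) of Eomes and 0 UMIs of T, Foxa2, Cdx2 and Gsc. Of 19294 kept cells, 2642 met this rule. They comprised 871 of the 8707 kept cells of the library labelled wild type and 1771 of the 10587 kept cells of the library labelled double knockout. A kept cell had at least 2500 UMIs, at least 1000 genes and at most 10% of its UMIs from mitochondrial genes. The members were set against 6744 comparison cells with 0 UMIs of all 5 genes, 3696 in the wild-type-labelled library and 3048 in the double-knockout-labelled library. They were also set against 629 cells (240 and 389) with 2 or more UMIs of both Eomes and T and 0 UMIs of Foxa2, Cdx2 and Gsc. Cells that differed from members only by holding 1 T UMI (351 and 652) were nearer by rule and were in neither comparison. Levels of the 5 genes that chose the cells are given only to describe that choice.

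Gastruloids are small balls of cultured pluripotent cells that elongate and lay down a body axis. Both groups came from the mouse R1 embryonic stem cell line, with about 300 cells per aggregate in serum-free N2B27 medium. After 2 days both received CHIR at 3 µM, which blocks GSK3 and so turns on the Wnt pathway, and they were pooled and dissociated 12 h later, so the effect of CHIR itself cannot be measured here. One group is wild type and the other is labelled as mutant for both Sp5 and Sp8, which encode zinc finger transcription factors downstream of Wnt signalling. The labels give neither the alleles nor the number of clones. Each genotype has 1 library of pooled aggregates, made with the 10x Genomics 3′ chemistry, so no difference has a replicate check and no test across samples was possible. All intervals given are exact 95% intervals that cover counting error only.

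Eomes, also called Tbr2, encodes a T-box transcription factor that Nodal signalling switches on in the posterior epiblast around the start of gastrulation. It is needed for epiblast cells to leave the epiblast through the primitive streak and for definitive endoderm and the earliest mesoderm to form. T, or Brachyury, encodes a related T-box factor that responds to Wnt signalling and marks the streak. Nodal acts with the co-receptor Cripto, encoded by Tdgf1, through Smad2 and Smad3, which reach DNA together with Smad4 and FoxH1. The Lefty proteins block the ligand and the co-receptor.

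Promoter sequences of 4 genes with higher levels in the members are printed because their upstream windows hold letters known to be bound by FoxH1, T-box or TCF factors. They are the 250 bases before the start site, from RefSeq on GRCm38.p6, written 5′ to 3′ on the strand of the gene, and hold no annotated exon. Epha2 is at chr4:141300971-141301220 on the plus strand, Fgf5 at chr5:98253934-98254183 on the plus strand, the first of the Otx2 promoters at chr14:48667645-48667894 on the minus strand and Tdgf1 at chr9:110946159-110946408 on the minus strand. Capitals mark the FoxH1 letters AATNNACA, the T-box letters AGGTGT and the TCF letters CTTTGA, read on either strand. The capitals in Otx2 are a FoxH1 match and those in Fgf5 a T-box match. Epha2 holds a TCF match and then a FoxH1 match, and Tdgf1 a T-box match and then 2 FoxH1 matches.
Epha2: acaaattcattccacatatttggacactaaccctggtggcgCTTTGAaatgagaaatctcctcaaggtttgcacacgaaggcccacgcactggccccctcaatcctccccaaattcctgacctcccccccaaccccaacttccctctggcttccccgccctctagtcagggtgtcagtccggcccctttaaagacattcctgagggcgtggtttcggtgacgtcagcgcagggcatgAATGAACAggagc
Fgf5: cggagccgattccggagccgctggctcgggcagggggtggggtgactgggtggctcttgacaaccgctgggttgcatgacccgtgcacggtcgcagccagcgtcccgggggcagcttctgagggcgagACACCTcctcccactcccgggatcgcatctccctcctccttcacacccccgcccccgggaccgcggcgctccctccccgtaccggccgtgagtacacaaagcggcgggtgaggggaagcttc
Otx2: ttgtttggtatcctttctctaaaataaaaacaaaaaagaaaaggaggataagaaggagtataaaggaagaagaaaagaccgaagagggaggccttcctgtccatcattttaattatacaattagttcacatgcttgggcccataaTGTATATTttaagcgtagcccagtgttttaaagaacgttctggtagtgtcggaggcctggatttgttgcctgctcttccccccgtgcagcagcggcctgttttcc
Tdgf1: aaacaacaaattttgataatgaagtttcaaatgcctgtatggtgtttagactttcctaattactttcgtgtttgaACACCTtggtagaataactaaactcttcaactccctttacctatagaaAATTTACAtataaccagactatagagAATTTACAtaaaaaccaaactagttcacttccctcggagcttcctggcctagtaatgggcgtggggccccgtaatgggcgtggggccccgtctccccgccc

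Of the 27 genes called higher in the members (the call is defined below), 19 had a promoter in the RefSeq table. The FoxH1 letters were in the window of 5 of these 19 genes (26.3%), namely Agpat3, Epha2, Klhl23, Otx2 and Tdgf1. The T-box letters were in 4 of 19 (21.1%), Arhgef5, Dennd2c, Fgf5 and Tdgf1. The TCF letters were in 3 of 19 (15.8%), Epha2, Klhl23 and Rbm47. A pair of the Smad letters CAGAC was in 1 of 19 (5.26%), Slc5a5, and the GC box GGGCGG in 14 of 19 (73.7%). Among the 6113 matched genes measured well enough to be called, the shares were 7.52% for FoxH1, 10.7% for T-box, 11.9% for TCF, 11.4% for the Smad pair and 68.3% for the GC box. The counts of genes called higher are small and carry no test. Among the 28 matched genes called lower, 5 (17.9%) held the FoxH1 letters, 2 (7.14%) the T-box letters, 3 (10.7%) the TCF letters, 2 (7.14%) the Smad pair and 15 (53.6%) the GC box. All these shares are of genes with a match in any of their promoters. Over all 27025 genes in the table they were 12.5%, 13.6%, 15.8%, 13.4% and 35.4%. Counted per promoter, the FoxH1 letters were in 21.4% of the 28 promoters of genes called higher. They were in 6.35% of the 7764 promoters of measured genes and 10.9% of all 32851 promoters. The T-box letters were in 14.3%, 8.95% and 11.8%. The first Otx2 promoter and the next overlap and share a single FoxH1 match, which is counted for each. The remaining Otx2 promoters hold no FoxH1 match. Agpat3, Klhl23 and Dennd2c fall outside the naming rule and are named because they make up these small counts. A match of letters is a description of the window and not a measured binding site.

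The deposited matrices held 104083993 UMIs in the wild-type-labelled library and 103187025 in the double-knockout-labelled library. Kept cells had a median of 10571 and 8637 UMIs and of 3275 and 2884 genes. The labels state 9238 and 11190 captured cells with medians of 5333 and 5398 genes, against 8772 and 10613 barcodes with at least 2500 UMIs in the files. The libraries shared 27 kept barcodes, against 13.6 expected if both sets were drawn at random from the listed barcodes. Sp5 and Sp8 went against the label: Sp5 was at 112 CPM (UMIs of the gene per 1000000 UMIs) in the wild-type-labelled and 462 CPM in the double-knockout-labelled members, and Sp8 at 19.6 and 40.5 CPM. Counts at the 3′ end do not show whether a transcript is altered, and whether the labels are swapped was not tested. The libraries are therefore named by their labels throughout, and a swap would turn every direction given between them, the shares of members included.

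Members made up 10.0% of kept cells (interval 9.38 to 10.7%) in the wild-type-labelled library and 16.7% (16.0 to 17.5%) in the double-knockout-labelled library. The intervals cover counting error within each library only, and a difference between genotypes was not tested. After every cell with at least 5000 UMIs was thinned to 5000 UMIs, the shares were 6.47% (5.95 to 7.02%) of 8296 cells and 13.9% (13.3 to 14.6%) of 9970 cells. Thinning left out 411 and 617 shallower cells. Eomes itself was detected in 43.4% of kept cells of the wild-type-labelled library and 61.8% of the double-knockout-labelled library, or 28.6% and 49.0% after thinning. As a background, cells with 2 or more UMIs of the neural genes Sox1 and Pax6 together, a cell type that should lack Eomes, held an Eomes UMI in 7.02% of 114 cells (median 10075 UMIs) and 13.0% of 54 cells (median 8480 UMIs), or 3.57% and 3.77% after thinning. A second Eomes UMI was present in 2.63% and 3.70% of those neural cells, against 24.3% and 40.4% of all kept cells. In barcodes of 10 to 100 UMIs, which hold mostly free RNA, Eomes was at 49.5 CPM (42.8 to 57.0) and 101 CPM (89.1 to 114). Its level in the members, which the rule fixes to be high, was 249 and 339 CPM.

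The rule counts a cell as T-negative when no T UMI was captured, which does not show that T was absent. Among cells with 2 or more Eomes UMIs and none of Foxa2, Cdx2 or Gsc, 59.6% of 1462 cells had 0 T UMIs, 24.0% had 1 and 16.4% had 2 or more in the wild-type-labelled library. The shares were 63.0%, 23.2% and 13.8% of 2812 cells in the double-knockout-labelled library. Members were 41.2% and 41.4% of all cells with 2 or more Eomes UMIs. T detection went up with every step of the Eomes count in both libraries, from 16.3% at 0 Eomes UMIs to 39.5% at 2 and 61.3% at 6 or more in the wild-type-labelled library. In the double-knockout-labelled library it went from 16.0% to 35.9% and 57.5%. Median depth went up along the same steps, from 9786 to 14307 UMIs and from 7839 to 11616 UMIs. In thinned cells the T share still went from 11.5% at 0 Eomes UMIs to 22.4% at 2 and 33.8% at 4 to 5 in the wild-type-labelled library, and from 14.2% to 25.4% and 33.0% in the double-knockout-labelled library, where the 55 thinned cells with 6 or more gave 32.7%. Gsc, a homeobox gene of the anterior streak, was detected in 4.81% of cells without Eomes and 34.5% of cells with 6 or more Eomes UMIs in the wild-type-labelled library, and in 7.57% and 38.8% in the other. With 1 time point, the order in which a cell makes Eomes and T cannot be measured, so "before T" in a name for these cells is not tested here.

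**Figure D1:**
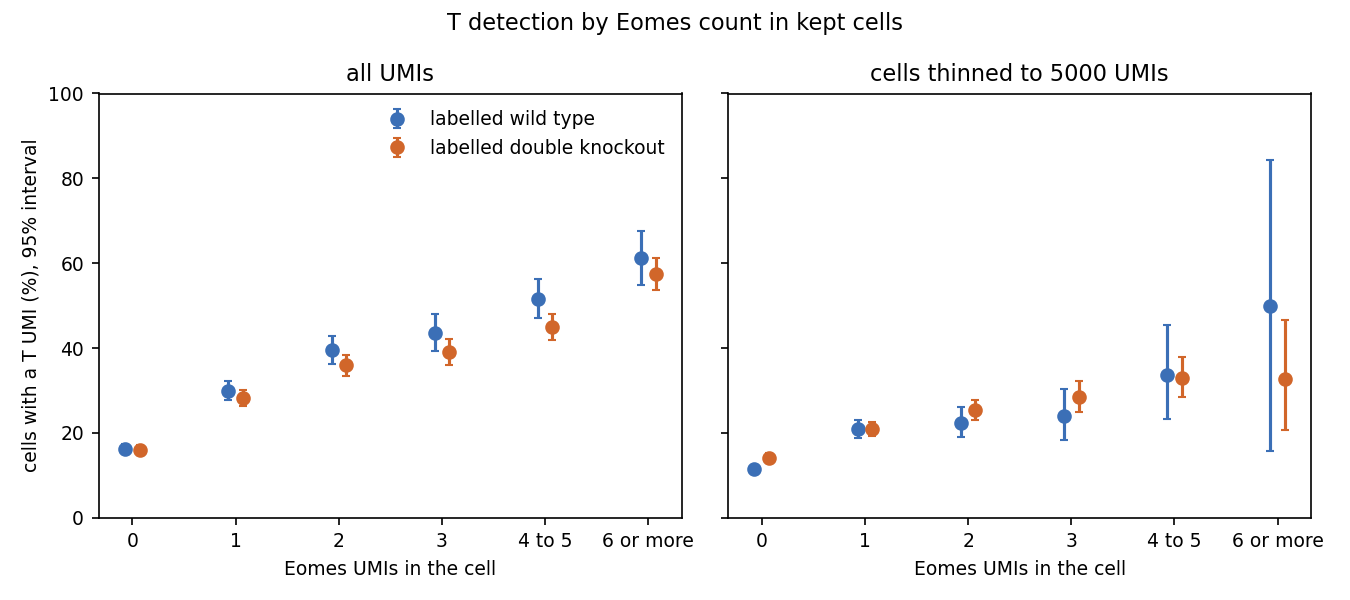
Kept cells in which T was detected (vertical axis, percent) by number of Eomes UMIs in the cell (horizontal axis), with all UMIs on the left and after thinning to 5000 UMIs on the right; points are the libraries and bars are exact binomial 95% intervals. The left panel goes from 16.3% and 16.0% at 0 Eomes UMIs to 61.3% and 57.5% at 6 or more; the right panel has only 8 wild-type-labelled cells in its last bin.

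The name epiblast was checked against marker genes. All 10 epiblast markers (Pou5f1, Otx2, Fgf5, Dnmt3b, Pou3f1, Utf1, Tdgf1, Cdh1, Epcam and Sox2) were at 10 CPM or more in the members of both libraries. Their summed level was 2582 and 2577 CPM in the members against 2030.0 and 2055 CPM in the comparison cells. All 10 were also at 10 CPM or more in the comparison cells and in the cells with Eomes and T, where they summed to 2590 and 2520 CPM. Sox2, Pou3f1 and Utf1 were lower in members than in comparison cells and the rest were higher. Those 3 had log2 ratios of -1.10 and -1.05, -0.33 and -0.36, and -0.04 and -0.30. Markers of other cell types were low. The 5 definitive endoderm markers summed to 9.99 and 7.75 CPM, the 7 mesoderm markers to 3.51 and 3.44 CPM with Msgn1 at 0, and the 5 trophoblast markers, a set that matters because trophoblast stem cells also use Eomes, to 2.50 and 3.38 CPM with Elf5 and Gata3 at 0. Extraembryonic endoderm markers (7 genes) summed to 8.88 and 7.75 CPM, with Cubn at 0 in the double-knockout-labelled library, and primordial germ cell markers (4 genes) to 2.59 and 4.66 CPM. The 5 neural markers summed to 4.35 and 3.03 CPM in the members and 17.7 and 13.9 CPM in the comparison cells. The 8 naive pluripotency markers summed to 46.1 and 47.8 CPM in the members and 91.3 and 79.7 CPM in the comparison cells. Markers of stressed cells (4 genes) were slightly higher in the members, at 37.6 and 52.6 CPM against 28.7 and 46.1 CPM. The 6 streak markers summed to 185 and 224 CPM in the members, with Fgf8 and Wnt3 the main part, against 80.3 and 115 CPM. By these markers the cells carried the name epiblast, with streak transcripts besides. The name was not particular to them, as the other groups of cells held the same epiblast markers.

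Depth and doublet scores differed between the groups of cells and were recorded with the results. Members had a median of 11376 and 9066 UMIs, comparison cells 9526 and 7695 UMIs. The highest doublet scores (0.8% per 1000 cells) fell on 9.87% and 10.4% of members, against 3.22% and 2.69% of comparison cells. Median mitochondrial shares were close, at 3.79% and 4.07% in members and 3.87% and 4.12% in comparison cells. A low share of UMIs from chromosome 11 (at or below 0.8 times the median) was seen in 10.7% and 5.03% of members and 13.8% and 4.43% of comparison cells. For chromosome 6 the shares were 12.2% and 16.0% of members and 18.4% and 19.2% of comparison cells.

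Against the comparison cells, the members had higher levels of the FGF ligand genes Fgf8 and Fgf5, the receptor tyrosine kinase gene Epha2, the epiblast and anterior factor gene Otx2, the TGF-beta feedback gene Pmepa1 and the Nodal co-receptor gene Tdgf1. They had lower levels of the neural and posterior homeobox genes Irx3, Irx5 and Gbx2, the factor genes Sox2, Sox3, Klf2 and Id2, and the growth factor gene Ptn. A gene was called when its log2 ratio (pseudocount 0.5 UMI) was 0.5 or more in size in the same direction in both libraries and its mean over the 4 sums was at least 10 CPM. By this rule 27 of 7600 genes were higher (0.355%) and 38 were lower (0.5%). The median log2 ratio over the 7600 genes was 0.02 and 0.03, and 70.1% of them had the same sign in both libraries. Of the 27 and 38 called genes, 13 and 19 were called in every one of the 10 alternatives tried. The plot of one library against the other shows the called genes along the diagonal.

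**Figure D2:**
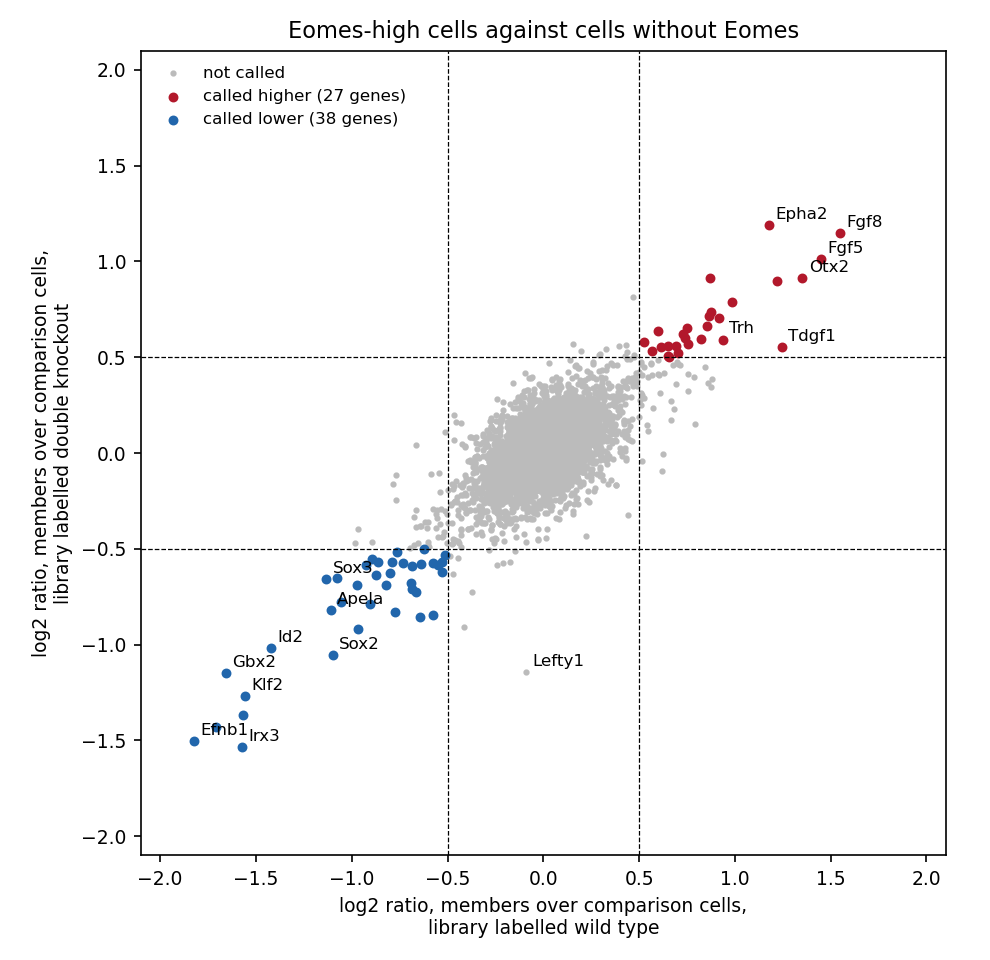
Log2 ratio of members over comparison cells for 7600 genes, in the library labelled wild type (horizontal axis) and the library labelled double knockout (vertical axis); dashed lines mark 0.5 and red and blue points are the 27 genes called higher and 38 called lower. Fgf8 is at 1.55 and 1.15, Efnb1 at -1.82 and -1.51, and Lefty1 lies off the diagonal at -0.09 and -1.14.

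The FGF ligand genes Fgf8 and Fgf5 were higher in the members. Fgf8, a ligand that mesoderm cells need to leave the streak, was at 111 CPM in the members and 37.9 CPM in the comparison cells of the wild-type-labelled library, and at 143 and 64.8 CPM in the double-knockout-labelled library. The members were higher in both, 2.92-fold and 2.21-fold, with log2 ratios of 1.55 (interval 1.43 to 1.66) and 1.15 (1.05 to 1.24). Fgf5, a classical marker of the primed epiblast, was at 86.7 against 31.8 CPM and at 102 against 50.6 CPM. Its log2 ratios were 1.45 (1.32 to 1.57) and 1.01 (0.91 to 1.12). Of the 14 FGF and ERK genes listed, 10 were measured at 10 CPM or more, and Fgf5 and Fgf8 were the 2 called higher with none lower. The list's median log2 ratio was 0.34 and 0.36. The receptor gene Fgfr1 gave -0.29 and -0.09, and the ERK feedback genes Dusp6, Etv4 and Spry2 gave 0.22 and 0.33, 0.46 and 0.39, and 0.24 and 0.42, all short of the call. Etv5 gave 0.44 and 0.07. The feedback genes Dusp4 and Spred1 lay on the other side, at -0.47 in both libraries and at -0.33 and -0.32.

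Among Nodal pathway genes the members differed in the co-receptor and in feedback genes more than in receptors and effectors. Of 19 listed genes, 12 were measured at 10 CPM or more, with Tdgf1 and Smad7 called higher and Gdf3 called lower. The list's median was 0.24 and 0.02. Tdgf1 was at 32.3 CPM in members against 13.6 CPM in comparison cells of the wild-type-labelled library and at 40.0 against 27.3 CPM in the other. Its log2 ratios were 1.24 (1.04 to 1.45) and 0.55 (0.40 to 0.71), so the members were higher in both, and the second value was 0.33, no longer called, when the rule was applied to thinned cells and 0.47 without cells low in chromosome 6 or 11. Smad7, an inhibitory Smad, gave 0.69 and 0.56, and its call was lost when the rule was applied to thinned cells. Gdf3, a ligand of the same family, was at 9.43 against 13.5 CPM and 11.4 against 16.5 CPM, with log2 ratios of -0.51 and -0.53, a call that 5 of the 10 alternatives ended. Nodal itself was at 32.9 against 20.8 CPM and at 27.2 against 22.6 CPM, with log2 ratios of 0.66 and 0.27, and was not called. The effector genes Smad2 and Smad4 and the receptor gene Acvr2b lay between -0.07 and 0.13 in both libraries, and Smad3 gave -0.29 and 0.04. The gene of the DNA-binding partner FoxH1 was at 0.277 and 0.291 CPM in the members, too low to compare.

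Lefty1, which encodes a Nodal inhibitor, was lower in the members of the double-knockout-labelled library and close to the comparison cells in the other. In the wild-type-labelled library it was at 42.9 CPM in members and 45.8 CPM in comparison cells, a log2 ratio of -0.09 (-0.24 to 0.06). In the double-knockout-labelled library it was at 30.1 and 66.5 CPM, a log2 ratio of -1.14 (-1.29 to -0.999). The lowest of the 4 levels was in the double-knockout-labelled members and the highest in the comparison cells of the same library. Over the alternatives the first value lay between -0.17 and 0.02 and the second between -1.27 and -0.71. Lefty2 was at 11.7 against 8.61 CPM and at 12.3 against 15.4 CPM, with log2 ratios of 0.44 and -0.33. Lefty1 is set out here because of these values, and the difference between the libraries was not tested. With 1 library each, genotype and culture cannot be told apart.

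Transcripts of the primitive streak were found in the members. Fgf8 and Wnt3 were the 2 of 3 measured streak genes called higher, out of 12 listed, and none was called lower. Nkx1-2, also measured, lay on the other side at -0.38 and -0.05. Wnt3, a Wnt ligand of the posterior epiblast, was at 52.6 against 33.6 CPM and at 58.5 against 41.2 CPM, with log2 ratios of 0.65 and 0.50, a call that 5 of the 10 alternatives ended. The homeobox gene Mixl1 had a mean under 10 CPM over the 4 sums. It was at 10.3 CPM in members against 2.7 CPM in comparison cells and at 11.7 against 3.72 CPM, with log2 ratios of 1.92 (1.52 to 2.33) and 1.65 (1.29 to 2.03). Evx1, another streak homeobox gene, was at 9.80 against 5.02 CPM and at 9.20 against 4.68 CPM, 0.97 in both libraries on the log2 scale. Mesp1 and Lhx1, which mark cells further along, were at 0.370 and 1.57 CPM in the wild-type-labelled members and 0.524 and 0.699 CPM in the double-knockout-labelled members.

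Primed epiblast genes split by gene. All 18 listed genes were measured, 3 were called higher (Otx2, Fgf5 and Tdgf1) and 2 lower (Sox2 and Sox3), and the list's median was 0.26 and 0.28. Otx2 encodes a homeodomain factor that opens the primed state and later marks the anterior side. It was at 44.6 CPM in members against 17.5 CPM in comparison cells and at 64.3 against 34.2 CPM, log2 ratios of 1.35 (1.18 to 1.53) and 0.91 (0.78 to 1.04). The members were higher in each library. Dnmt3b, the de novo DNA methyltransferase gene of the epiblast, was at 866 against 608 CPM and 855 against 615 CPM, with log2 ratios of 0.51 and 0.48. Pou5f1, encoding Oct4, gave 0.26 in both libraries, and Pou3f1, a factor of the anterior epiblast, gave -0.33 and -0.36. None of these 3 was called.

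Genes of other kinds were also higher in the members. Epha2, encoding an ephrin receptor, was at 42.3 CPM in members against 18.7 CPM in comparison cells and at 51.8 against 22.7 CPM. The differences were 2.26-fold and 2.28-fold, with log2 ratios of 1.18 (1.00 to 1.35) and 1.19 (1.03 to 1.35). Efnb1, encoding a membrane-bound ephrin ligand of the other class, went the opposite way, at 5.92 against 21.1 CPM and 6.23 against 17.7 CPM, or log2 ratios of -1.82 and -1.51. Pmepa1, whose product dampens TGF-beta signalling and which that signalling induces, gave 1.22 (1.02 to 1.41) and 0.90 (0.72 to 1.08). Trh, encoding the precursor of thyrotropin-releasing hormone, had the highest level of the genes called higher and named here, at 558 against 291 CPM and 836 against 555 CPM, with log2 ratios of 0.94 and 0.59. Nefl, a neurofilament gene that lies opposite Nefm, gave 0.99 and 0.79. Grrp1 gave 0.87 and 0.91, Car4, a carbonic anhydrase gene, 0.86 and 0.71, Prickle1, a planar polarity gene, 0.91 and 0.70, Slc5a5, the sodium-iodide symporter gene, 0.86 and 0.66, Rbm47, an RNA-binding protein gene, 0.88 and 0.74, and Arhgef5 0.75 and 0.65. Among these genes, the calls of Trh and Prickle1 were lost when the rule was applied to thinned cells, and that of Rbm47 also under depth matching and with 3 or more Eomes UMIs.

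The genes lower in the members included factor genes of the neural plate and the pluripotency factor genes Sox2 and Klf2. Nanog and Pou5f1, also factor genes of pluripotency, lay on the other side without a call. Their log2 ratios were 0.70 and 0.47, and 0.26 in both libraries. Irx3 was at 10.5 CPM in members against 31.5 CPM in comparison cells of the wild-type-labelled library and at 5.47 against 15.9 CPM in the other. Its log2 ratios were -1.57 (-1.87 to -1.30) and -1.53 (-1.88 to -1.21). Irx5, its neighbour on chromosome 8, gave -1.57 and -1.37, and Gbx2, a posterior neural factor gene that restrains Otx2, gave -1.66 and -1.15. These are 3 of the 5 measured genes of the list of anterior and Irx genes, which holds Otx2 as the 1 called higher. Sox2, the pluripotency and neural factor gene, was at 22.8 against 48.9 CPM and 19.7 against 41.1 CPM, log2 ratios of -1.10 (-1.30 to -0.91) and -1.05 (-1.24 to -0.88). Sox3 gave -1.13 and -0.66, and Crabp2, encoding a retinoic acid binding protein, -1.08 and -0.65, and these were the 2 of 4 measured neural genes called lower. Nrcam and Nes, also measured, lay on the other side at 0.49 and 0.38, and 0.17 and 0.19, short of the call. Neural-marker cells, those with 2 or more UMIs of Sox1 and Pax6 together, were 2.52% and 1.38% of comparison cells and 0.230% and 0.113% of members. Without these and the other marked cells, Irx3, Irx5, Gbx2, Sox2, Sox3 and Crabp2 were still called lower. Neural cells with fewer than 2 such UMIs stayed in, and their part was not tested.

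Klf2, a Krüppel-like factor gene of the naive state, was at 16.8 CPM in members against 49.6 CPM in comparison cells and at 14.6 against 35.3 CPM, log2 ratios of -1.56 (-1.79 to -1.34) and -1.27 (-1.48 to -1.07). It was 1 of only 2 naive genes measured at 10 CPM or more out of 14. The other, Zfp42, gave -0.47 and -0.45. Id2, a target of BMP signalling, gave -1.42 and -1.02 and was the 1 of 8 measured BMP and Id genes called, while its relatives Id1 and Id3 gave -0.98 and -0.47, and -0.38 and -0.39. Ptn, encoding the secreted growth factor pleiotrophin, was at 53.6 against 176 CPM and at 48.2 against 129.9 CPM, log2 ratios of -1.71 and -1.43. Tmsb4x, encoding the actin-binding thymosin beta 4, had the highest level of the genes called lower and named here, at 481 against 899 CPM and 487 against 840.1 CPM, with log2 ratios of -0.90 and -0.79. Apela, which encodes the hormone ligand Elabela, gave -1.11 and -0.82, Ifitm1 -1.06 and -0.78 and the imprinted gene Peg10 -0.97 and -0.92. The growth inhibitor gene Cdkn1c gave -0.69 and -0.68, and the matrix gene Sparc -0.68 and -0.59. The call of Cdkn1c was lost with a mitochondrial limit of 5%, and that of Sparc also without cells low in chromosome 6 or 11 and without other cell types.

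Several gene groups showed no call. With 0.355% of all genes called higher and 0.5% lower, a count of 0 in lists of this size is at the background and is no result about the members. None of 15 S phase genes and none of 15 mitosis genes was called, with medians of 0.07 and 0.06, and of 0.09 and 0.12. None of the 10 measured stress and p53 genes was called. None of the 23 measured cilium genes, out of 34 listed, was called, with a median of -0.09 and -0.04. The cilium genes are listed because the series concerns primary cilia. Among the genes of epithelial to mesenchymal transition, 14 of 18 were measured and only Zeb2, a repressor of E-cadherin, was called, lower at -0.89 and -0.55, a call that 2 of the 10 alternatives ended. The epithelial genes Cdh1 and Epcam gave 0.31 in both libraries, and 0.27 and 0.31, short of the call, and Snai1, a mesenchymal inducer, was at 6.94 and 4.89 CPM. Of 13 measured Wnt feedback and effector genes, Wnt3 alone was called higher, and Axin2 gave 0.04 and 0.08 and Lef1 0.00 and -0.05. No definitive endoderm gene of 11 reached a mean of 10 CPM.

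Levels moved in steps with the Eomes count among cells with no T, Foxa2, Cdx2 or Gsc UMI. The cells just inside the rule held exactly 2 Eomes UMIs (409 and 746 cells) and those just outside exactly 1 (959 and 1357 cells). Fgf8 was at 74.0 CPM at 1 Eomes UMI and 108 CPM at 2 in the wild-type-labelled library, and at 105 and 118 CPM in the double-knockout-labelled library. Epha2 was at 31.4 and 36.3 CPM, and at 35.6 and 48.3 CPM. Otx2 was at 35.0 and 37.3 CPM, and at 47.7 and 58.6 CPM. Cells just outside the threshold thus lay between the comparison cells and the members for Fgf8, Epha2 and Otx2. At 6 or more Eomes UMIs, Otx2 reached 73.6 CPM (57.9 to 92.3) and 79.1 CPM (67.3 to 92.3), and Mixl1 reached 14.7 CPM and 17.7 CPM. Sox2 went down from 48.9 CPM at 0 Eomes UMIs to 28.6 CPM at 1 and 18.6 CPM at 6 or more in the wild-type-labelled library, and from 41.1 to 26.7 and 13.3 CPM in the other. Klf2 went from 49.6 to 26.5 and 7.85 CPM, and from 35.3 to 20.04 and 9.83 CPM. Lefty1 went down in the double-knockout-labelled library, from 66.5 CPM at 0 to 47.2 at 1, 34.1 at 2 and 24.1 at 6 or more, while the wild-type-labelled values ranged from 37.3 to 52.7 CPM in no order. Median depth per cell went up along the same steps, from 9526 to 13398 UMIs and from 7695 to 10913 UMIs. Its part in these steps was not tested beyond the depth-matched alternative, in which Fgf8, Epha2, Otx2, Sox2 and Klf2 were still called.

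**Figure D3:**
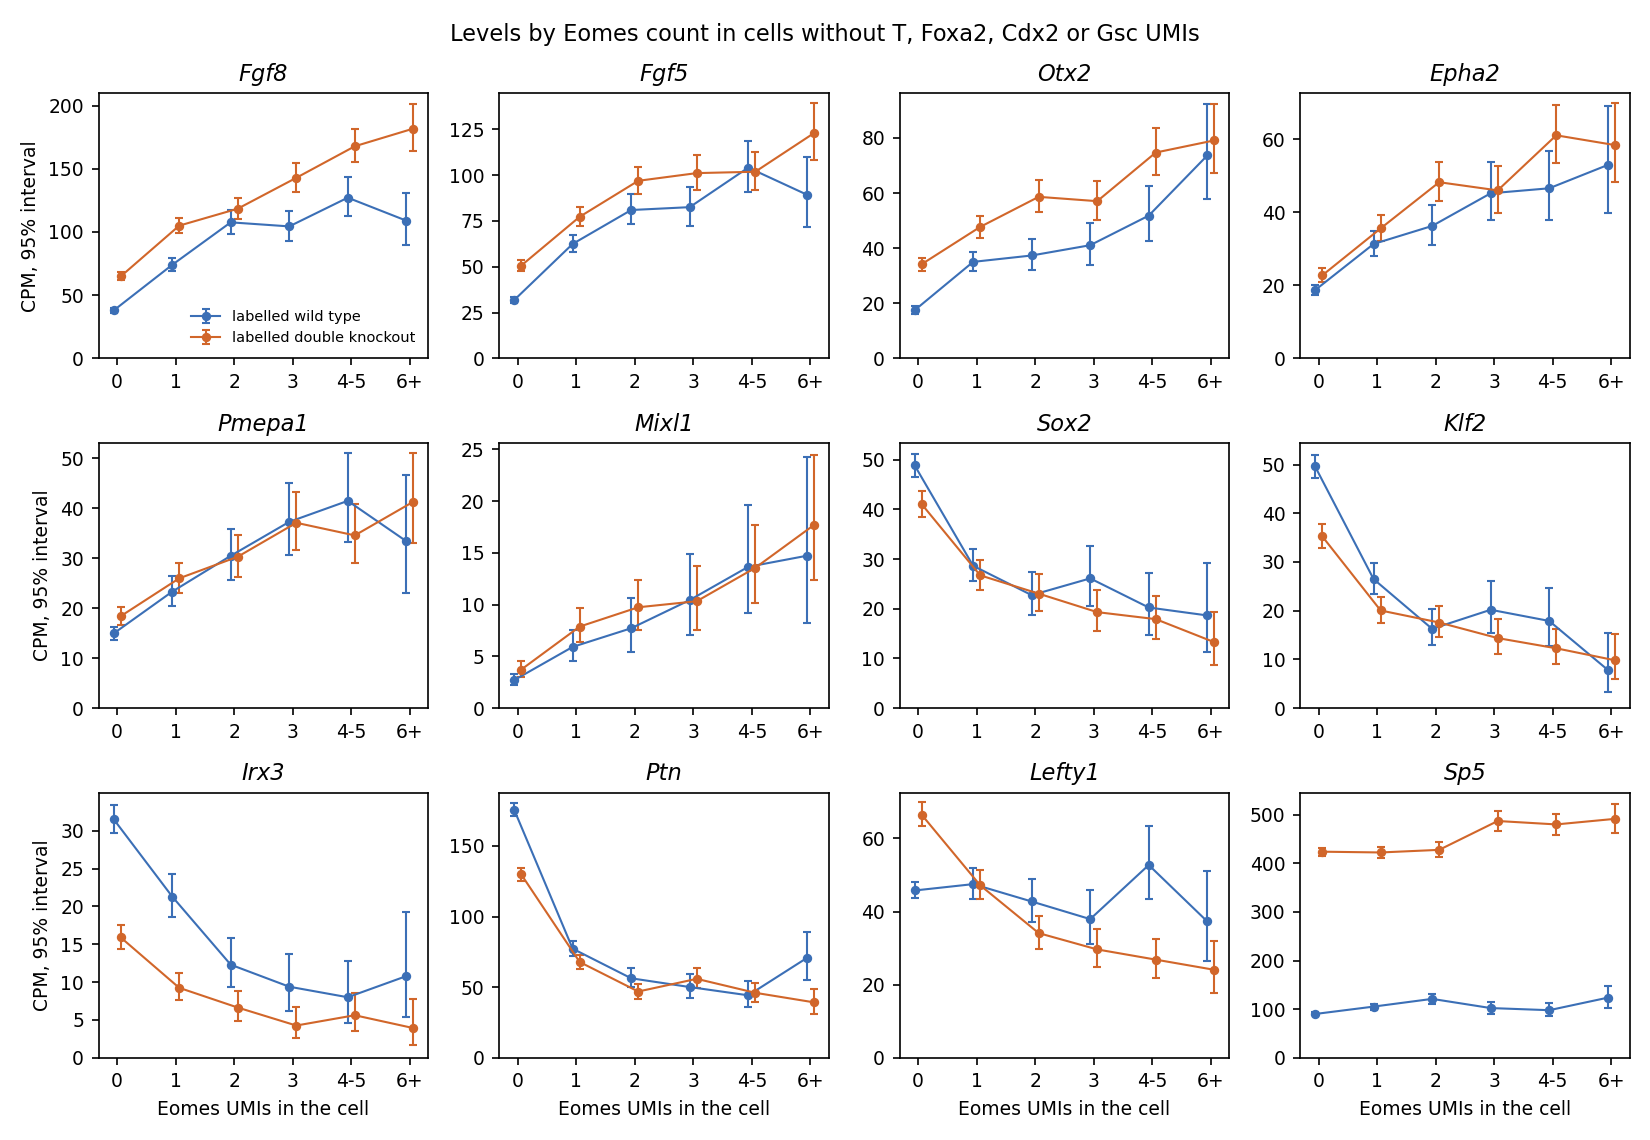
Levels of 12 genes (vertical axes, CPM, from 0) by number of Eomes UMIs (horizontal axes) in cells with 0 UMIs of T, Foxa2, Cdx2 and Gsc; points are the sums over cells of each library and bars are exact Poisson 95% intervals. Fgf8, Epha2 and Otx2 go up and Sox2 and Klf2 go down between 0 and 2 Eomes UMIs in both libraries, and Lefty1 goes from 66.5 to 24.1 CPM in the double-knockout-labelled library.

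Compared with the cells that held both Eomes and T, the members had lower levels of the streak genes Mixl1, Evx1 and Fgf8. These were 3 of 5 streak genes measured here, but Evx1 reached the mean of 10 CPM only through the Eomes and T cells. The count of 3 of 5 therefore depends in part on that filter and is no separate result. By the same call, 4 of 7631 genes were higher in the members (0.0524%) and 13 were lower (0.17%). Mixl1 was at 10.3 CPM in the members and 31.1 CPM in the Eomes and T cells of the wild-type-labelled library, and at 11.7 and 36.3 CPM in the other. These were the lowest of the named ratios in both libraries, log2 -1.60 (-1.996 to -1.20) and -1.64 (-1.94 to -1.33). Evx1 was at 9.80 against 21.8 CPM and 9.20 against 15.8 CPM, with -1.16 and -0.79. Adamts9, encoding a matrix protease, gave -1.09 and -0.65. Tdgf1 gave -0.70 and -0.63, Fgf8 -0.69 and -0.60 and Epha2 -0.61 and -0.57. Since Tdgf1, Fgf8 and Epha2 were also higher in members than in comparison cells, the member values lay between those of the other groups in both libraries. The 4 genes higher in the members were Pcsk2, Klf2, Pdzrn3 and Cdc6, with log2 ratios of 0.78 and 0.82, 0.75 and 0.63, 0.99 and 0.57, and 0.67 and 0.53. Pou3f1 gave 0.49 and 0.57, and was just short of the call. Evx1, Mixl1 and Tdgf1 were called in every alternative, and none of the 4 higher genes was. With the rule on thinned cells, which left 46 and 122 Eomes and T cells, Klf2 and Cdc6 turned to -0.33 and -0.024 in the wild-type-labelled library, and 78 genes were higher and 265 lower. The calls of Fgf8 and Adamts9 were lost with 3 or more Eomes UMIs, and that of Epha2 when the rule was applied to thinned cells. The Eomes and T cells were deeper, with medians of 13341 and 10701 UMIs, and 17.5% and 18.3% of them had the highest doublet scores. A low chromosome 11 share was found in 25.8% and 11.3% of them and a low chromosome 6 share in 27.5% and 13.1%. The part of these in the differences was not tested beyond the alternatives.

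**Figure D4:**
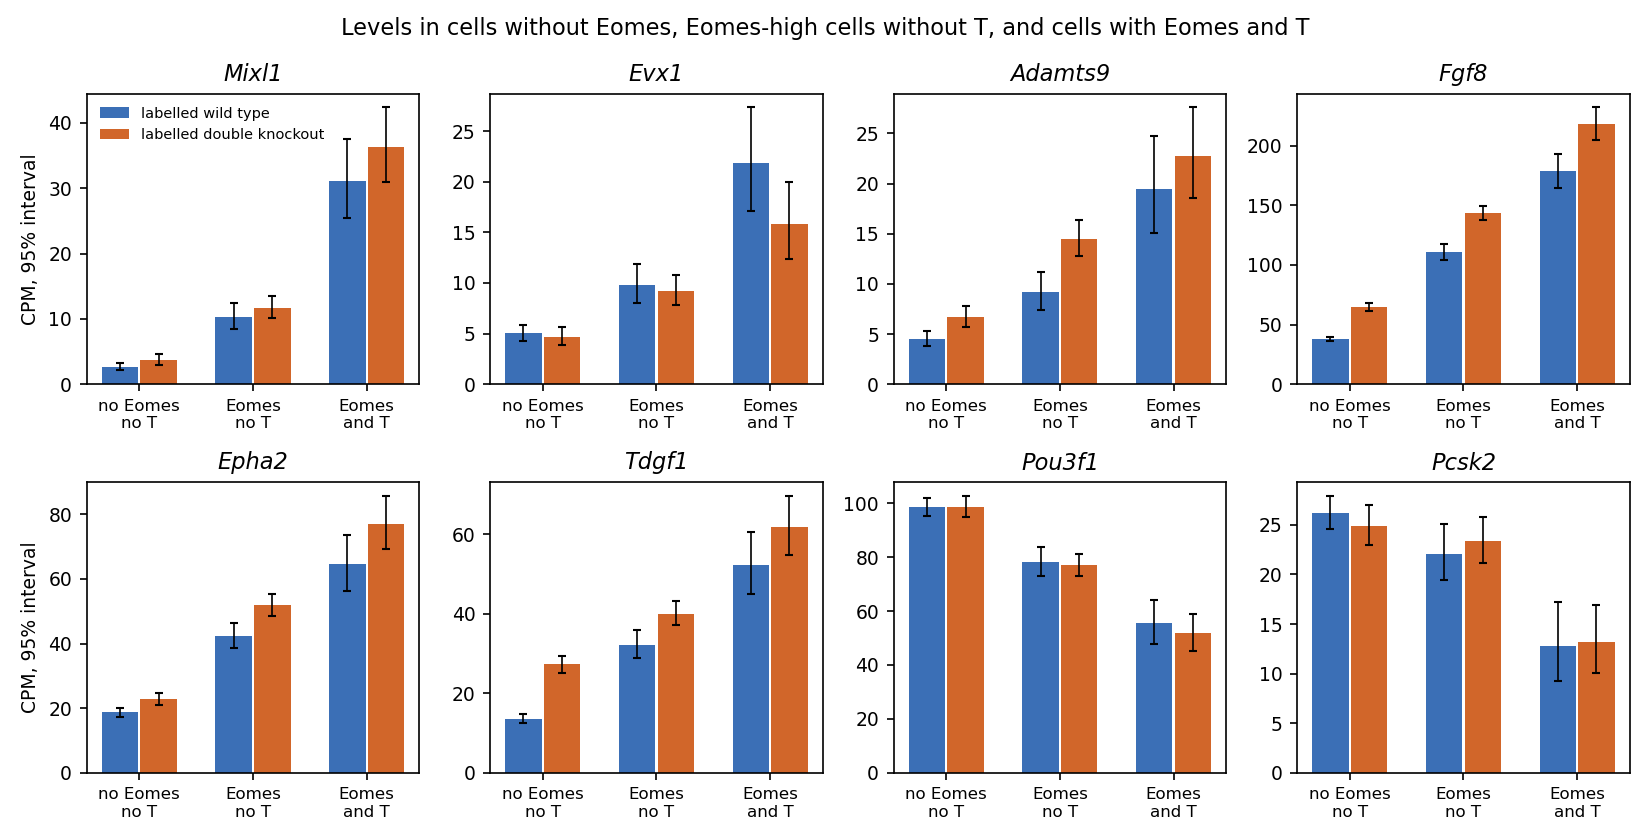
Levels of 8 genes (vertical axes, CPM, from 0) in comparison cells (no Eomes, no T), members (Eomes, no T) and cells with Eomes and T (horizontal axes), by library; bars are sums over cells and error bars are exact Poisson 95% intervals. Mixl1 goes from 2.7 and 3.72 CPM to 10.3 and 11.7 CPM and 31.1 and 36.3 CPM, and Pou3f1 goes down in the same order.

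Between the libraries, the members differed in Sp5, Sp8, Grb10, Cdkn1c and Phlda2, each by a similar ratio in the comparison cells. Ratios are given as double-knockout-labelled over wild-type-labelled members. By these, 28 of 7597 genes were 0.5 or more higher on the log2 scale (0.369%) and 36 were lower (0.474%), of which 12 and 9 were called in every alternative. Sp5 was higher by 2.05 (1.96 to 2.14) in members and 2.23 in comparison cells, and Sp8 by 1.05 (0.82 to 1.28) and 1.01. The imprinted gene Grb10, encoding an adaptor that restrains growth factor receptors, was at 67.3 CPM in wild-type-labelled and 10.1 CPM in double-knockout-labelled members, -2.73 (-2.98 to -2.49) against -2.78 in comparison cells. Cdkn1c and Phlda2, a pair of imprinted growth-restraining genes, gave -1.51 and -0.87 in members and -1.52 and -0.82 in comparison cells. Their calls were lost with the rule on thinned cells and with 3 or more Eomes UMIs, respectively. Rpa3, a subunit gene of the single-strand DNA binding complex, was at 110.4 and 59.6 CPM, a log2 ratio of -0.89, and Sdhd, a respiratory chain subunit gene, gave -0.74. Flt1, a VEGF receptor gene, was at 12.6 and 22.9 CPM, 0.86 (0.58 to 1.16) in members and 0.83 in comparison cells. B3gnt7 gave 0.74 in members and Slc7a1, an amino acid transporter gene, 0.70, against 0.72 and 0.45 in comparison cells. None of the 22 measured cilium genes was called between the libraries among members, with a median of -0.11 against -0.13 in comparison cells. The medians over all 7597 genes were -0.02 and -0.03. For a list of this size no call is at the background and is no result about the members.

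Several genes that were higher in the members had a smaller gap between the libraries in members than in comparison cells. Fgf5 gave 0.24 in members and 0.67 in comparison cells, Fgf8 0.37 and 0.77, Otx2 0.53 and 0.97, and Tdgf1 0.31 and 1.00. Each of the 4 was higher in the double-knockout-labelled library in both groups of cells, and the gap was smaller among members. This restates their larger ratios of members over comparison cells in the wild-type-labelled library. More genes had large ratios in that library. Taken alone, it had 68 of 7600 genes higher by 0.5 or more and 77 lower, against 39 and 49 in the other. The narrowing is therefore not shown to be particular to these 4 genes. Epha2 gave 0.29 and 0.28, with no such narrowing. Nnat, an imprinted gene with Blcap on the other strand, went the other way, with 0.71 (0.52 to 0.90) in members and 0.18 in comparison cells. Lefty1 gave -0.51 (-0.70 to -0.33) in members and 0.54 in comparison cells, the opposite sign, and its call among members was lost in 3 alternatives. None of these differences between the groups of cells was tested, and free RNA, in which Eomes was at 49.5 and 101 CPM, moved with the library as well.

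**Figure D5:**
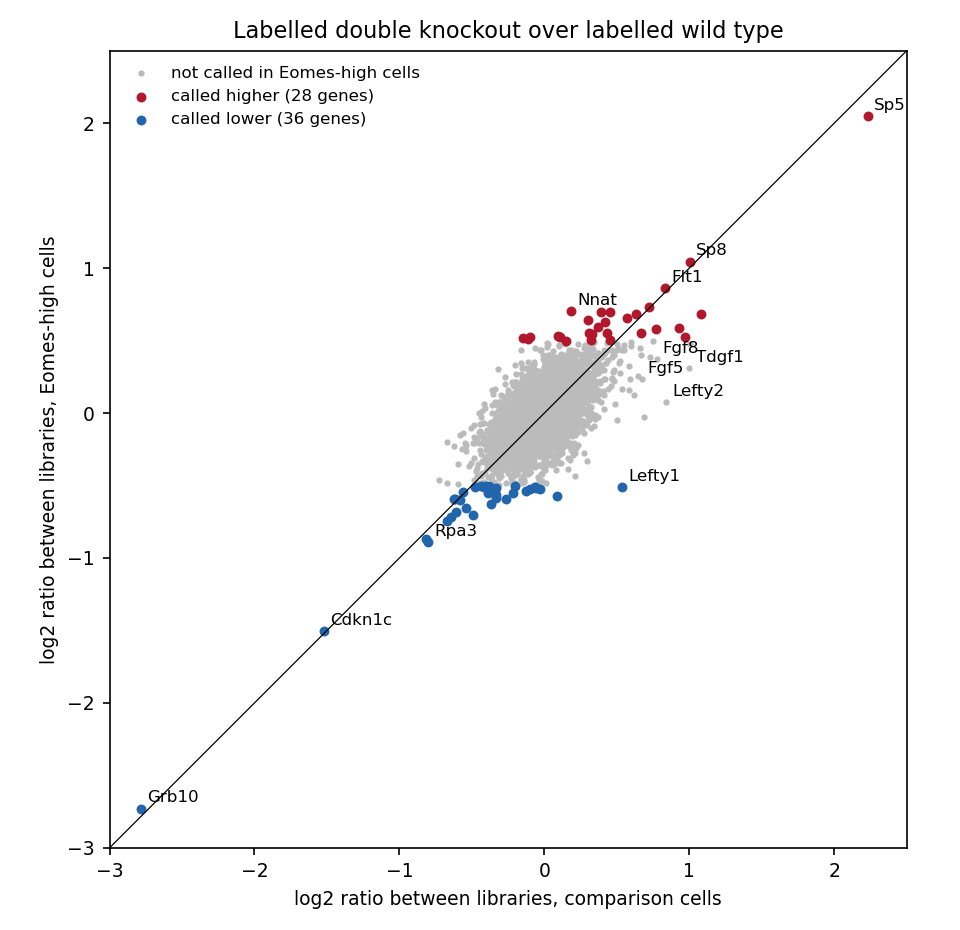
Log2 ratio of double-knockout-labelled over wild-type-labelled sums for 7597 genes, in comparison cells (horizontal axis) and in members (vertical axis); the line marks equal values, and red and blue points are the 28 and 36 genes called in members. Sp5 (2.05) and Grb10 (-2.73) lie near the line, Tdgf1, Fgf8 and Fgf5 below it, and Lefty1 at 0.54 and -0.51.

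Reads from overlapping genes on opposite strands could not be told apart where the counting did not use strand, which is not stated in the sources used here for these matrices. This touches Eomes (chr9:118478212-118486132, plus strand, GRCm38, opposite Gm33460), Otx2, Irx3, Gbx2, Nefl, Evx1, Adamts9, Cdkn1c, Zeb2, Arhgef5, Rbm47, Dnmt3b, Pou5f1, Pou3f1 and Pcsk2, each of which has an annotated gene on the other strand.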

How the data were processed

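Single-cell 3′ RNA libraries were analysed from 2 pools of mouse gastruloids, 1 per genotype. The authors' deposited matrices hold raw UMI counts for every barcode. The labels name Cell Ranger 8.0.1, and the submitters' processing notes name STARsolo, STAR 2.7.9a, Seurat 5.1.0 and the mm10 build. Which of these wrote the matrices is not given in the sources used here.

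From these counts, cells were filtered, UMIs were summed over the cells of each group and library, and the sums were scaled to CPM (Python 3.11.15, NumPy 2.4.6, SciPy 1.17.1, pandas 2.3.3, matplotlib 3.10.9). Log2 ratios used a pseudocount of 0.5 UMI. With 1 library per genotype nothing was tested. Sums carry exact Poisson intervals, ratios exact conditional intervals of a pair of Poisson sums and shares of cells Clopper-Pearson intervals, all at 95% and for counting error only. The members hold 10810877 and 17171533 UMIs. Doublets were left in, and removing the highest scores (scikit-learn 1.9.0) was an alternative. Other alternatives were the CPM filter, TMM scaling (edgeR 4.0.16 in R 4.3.3), depth matching, the cell filters, the Eomes threshold, the rule on cells thinned to 5000 UMIs, and leaving out cells low in chromosome 6 or 11 or holding markers of other cell types. The calling script was tested on simulated counts. Gene positions and antisense partners came from GENCODE M21 by gene ID (32235 of 32285 features).

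Named genes were the 12 highest and 12 lowest by the smaller ratio of the 2 libraries against the comparison cells, the 8 highest and 8 lowest of each other comparison, and in each list every called gene and up to 3 others of high level, leaving out mitochondrial, ribosomal protein, Y-linked and clone-named genes. Those comparisons together name more genes than are described. Nodal, Nanog, Utf1, Smad2, Foxh1, Mesp1, Lhx1, Zfp42, Snai1, Id1 and the ERK feedback genes were added for their known roles, after their values were seen. The cells, gene lists and motifs were chosen with earlier results of these data known.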

Additional observations from a re-analysis of the deposited data

Results flagged for a closer look

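Barcodes of 10 to 100 UMIs were in no comparison and hold mostly free RNA. In the double-knockout-labelled library they held Eomes at 101 CPM (89.1 to 114), Sp5 at 442 CPM (417 to 469) and Sp8 at 34.6 CPM (27.8 to 42.7), above the 49.5, 85.4 and 18.7 CPM of the wild-type-labelled library. The 2 libraries served as each other's reference. With 1 library each, genotype and library cannot be told apart in these values.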

How the results depend on the processing

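No paired analysis was possible because each genotype has 1 library, and no replicate could be left out. The median log2 ratio over all genes moved by less than 0.1 under every setting. Of the counts and shares recomputed, 67 stayed within 1.5 times of the reported value (for shares, within its interval) and 27 did not, and of the single-gene ratios 1693 stayed within their intervals, 122 moved and 3 reversed. With a mean of 1 CPM in place of 10, more genes of low level were tested, and 95 genes were higher and 197 lower than in comparison cells, 111 and 173 than in Eomes and T cells, 327 and 480 between libraries, and 26 list genes were lower. With 3 or more Eomes UMIs, members were 5.31% and 9.68% of cells, 41 genes were higher than in comparison cells, and 50 and 64 genes differed between libraries. With the rule on thinned cells, members were 6.47% and 13.9%, 78 and 265 genes differed from the 46 and 122 remaining Eomes and T cells, and 149 and 167 genes differed between libraries. There, Cdc6 (-0.024), Gen1 (0.022) and Klf2 (-0.33) reversed against Eomes and T cells in the wild-type-labelled library. Genes higher in members than in Eomes and T cells, 4 as reported, numbered 8 with TMM scaling, 7 with depth matching, 10 without doublet scores (21 lower), 8 without cells low in chromosome 6 or 11 (members 11.3% in the wild-type-labelled library) and 8 without other cell types. Depth matching gave 59 and 57 genes between libraries. The cause of these shifts was not tested except where fewer cells or more genes follow from the setting itself. Depth limits values under 10 CPM most in the Eomes and T cells, which are fewest.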
